A study of Mus musculus with 11 samples.

Results

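The 36 genes described here encode the proteins of homologous recombination, the Fanconi anemia pathway and the replication checkpoint, with 1 mismatch recognition gene beside them. They were chosen by symbol, as a fixed list of 36 mouse genes, which was drawn up with earlier results of these data known, although the rule itself uses no measured value. The symbols matched 37 of the 37991 Ensembl gene IDs in the count table, because Rad54b has a second ID, which is described on its own. All 36 genes passed the filter on low counts in each of the 3 comparisons.

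RNA was sequenced from sorted bone marrow hematopoietic stem cells (HSC) of C57BL/6 mice 8 weeks old, 1000 cells for each library, in 4 control (Ctrl), 4 NA10hd and 3 NV libraries. NA10hd mice carry LSL-NA10hd, a NUP98-HOXA10HD fusion with a 3xFlag tag and an IRES-Tdtomato reporter behind a loxP-stop-loxP cassette at the ROSA26 locus, together with Vav-Cre. NV mice carry the LSL NrasG12D/+ allele, a conditional oncogenic form of the GTPase Nras, together with the same Vav-Cre. The labels call the Ctrl mice wild type, and the methods call them littermate controls. The Vav promoter drives Cre throughout the blood system, so both alleles were switched on in other blood cells as well as in HSC. The sources do not say how many mice gave each library, so p-values measure the spread between these libraries, part of which may be technical. The counts do not separate the mutant Nras allele from the normal one, and the genotypes were not checked from them here.

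The libraries held 5464815 to 14283008 counts. The sort kept cells with c-Kit, Sca1 and CD150 and gated out those with CD48, CD135 or lineage markers, among them Ter119 of erythroid cells, Mac1 and Gr1 of myeloid cells and B220 of B cells. The 6 HSC markers used to check the label (Kit, Ly6a, Slamf1, Procr, Mecom and Hlf) summed to 1322 to 1689 CPM (counts per 1000000 counts, after TMM scaling) in Ctrl, 1326 to 1935 CPM in NA10hd and 1268 to 1594 CPM in NV libraries, and Cd48 and Flt3, which encode 2 of the gated-out markers (CD48 and CD135), summed to at most 19.1 CPM. Within the 6, Ly6a was called higher (log2 fold change 0.70 ± 0.14, adjusted p = 0.0126) and Procr lower (-0.72 ± 0.13, adjusted p = 0.00871) in NV than in Ctrl, 4 of 6 were lower there at an unadjusted p under 0.05, and Procr and Hlf were called higher in NA10hd than in NV. Cd48 was at 2.71, 5.89 and 2.22 CPM in NV, 0, 0.398, 0 and 0 CPM in NA10hd and 0.159 to 3.32 CPM in Ctrl libraries. In NA10hd against NV its log2 fold change was -4.87, called lower by DESeq2 and not called by edgeR. The part of all these markers in the values of the 36 genes was not tested. Counts of Xist and of Y-linked genes showed that libraries differed in the sex of the mice. NA10hd replicates 1 to 3 and Ctrl replicates 1 and 4 held Y-linked counts without Xist, NA10hd replicate 4 held Xist without Y-linked counts, and Ctrl replicates 2 and 3 and all 3 NV libraries held both. No NA10hd library had the mix of the NV libraries, so sex and genotype cannot be told apart in a comparison of NA10hd with NV. In bulk libraries fewer cells that express a gene and less RNA per cell cannot be told apart either.

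Homologous recombination repairs broken DNA and stalled replication forks by copying the intact sister chromatid. Nucleases first resect the broken end, Brca1 and Brca2 with their partners then prepare the single strand for strand exchange, and the strand invades the matching sequence. The Fanconi proteins unhook crosslinks between the strands and protect stalled forks, and the kinases Atr and Chek1 hold the cell cycle while forks are restarted. Recombination needs a sister chromatid and so belongs to S and G2 phase, whereas quiescent HSC are known to rely on end joining. Loss of Fanconi genes causes bone marrow failure, in which HSC are lost.

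In Ctrl HSC the 36 genes differed widely in level. Per kilobase of exon, the highest were Tipin at 73.3 ± 9.85 CPM per kb (SD, n = 4), Msh6 at 25.1 ± 2.06 and Topbp1 at 18.1 ± 2.13. The lowest were Fanca at 0.215 ± 0.128, Fanci at 0.377 ± 0.107 and Fancd2 at 0.547 ± 0.327 CPM per kb. Tipin stood above Msh6 by far more than the spread of either, whereas the ranges of mean ± SD of the 3 lowest genes overlapped. At this depth the lowest genes rest on few counts, and the SD of Fanca and Fancd2 exceeded 0.5 times their mean.

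Against Ctrl, 10 of the 36 genes were called higher in NV HSC and none lower (edgeR quasi-likelihood test, Benjamini-Hochberg adjusted p under 0.05 over all tested genes and fold change above 1.5). The 10 were Brca1, Bard1, Brca2, Rad51ap1, Rad54b, Exo1, Clspn, Timeless, Tipin and Topbp1. They made up 27.8% of the list, against 2.55% of all 13462 tested genes called higher. In 19 of the 36 genes every NV library lay above every Ctrl library, against 9.49% of all tested genes. The log2 fold change was positive in 32 genes and negative in 4, with a median of 0.73 beside a median of -0.01 over all tested genes. DESeq2 called 13 members higher, the same 10 with Fancd2, Fanci and Xrcc3, against 3.42% of the 14544 genes it tested. The count fell to 3 without NV replicate 2, to 4 without NV replicate 3 and to 6 without Ctrl replicate 4. It was 4 when only Ctrl replicates 2 and 3, the controls with the sex mix of the NV libraries, were used, and 2 when all 3 groups shared 1 fit, and Brca1 and Rad51ap1 were among the called genes in each of these.

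Mitochondrial genes took 2.56% to 3.16% of the counts in the 3 NV libraries and 3.42% to 5.28% in the 8 others, without overlap, and the part of this share in the differences was not tested.

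**Figure D1:**
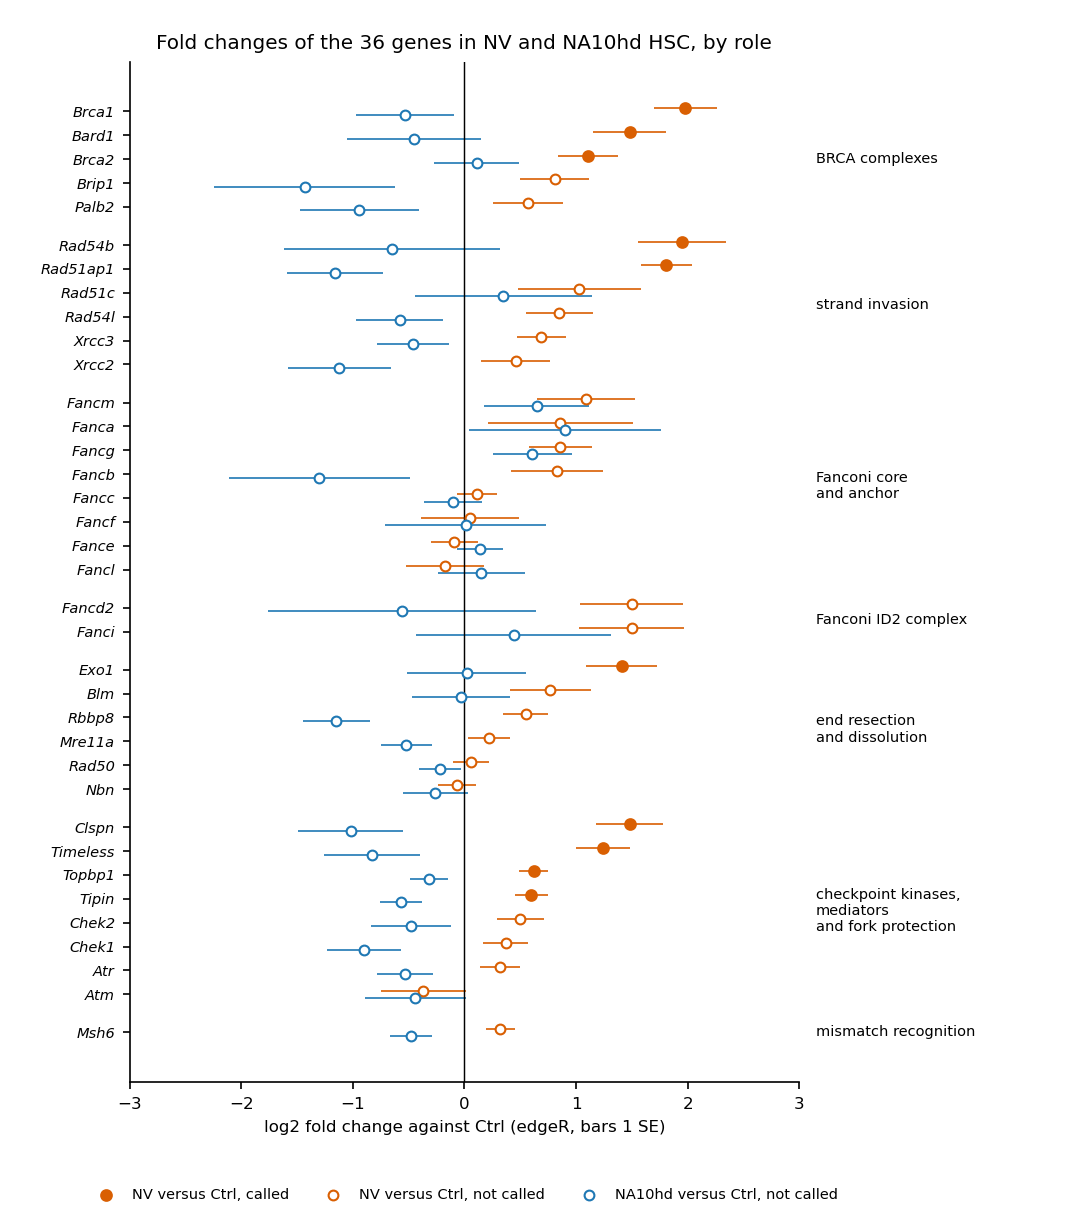
Log2 fold change against Ctrl (x axis, edgeR, bars 1 SE) of each of the 36 genes (y axis, grouped by role), NV in orange and NA10hd in blue, filled where called. The 10 filled points are all NV and lie between 0.60 (Tipin) and 1.98 (Brca1), and no NA10hd point is filled.

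In NA10hd HSC the same genes mostly lay on the other side of Ctrl, without passing the test. None of the 36 was called by edgeR, where 1 of 13060 tested genes (0.00766%) was called in all. At an unadjusted p under 0.05, 8 members were lower (22.2% of the list, against 5.26% of all tested genes) and none higher, namely Chek1, Clspn, Mre11a, Msh6, Rad51ap1, Rbbp8, Tipin and Xrcc2. DESeq2 called 1 of the 36 lower, Rbbp8, with an adjusted p of 0.00964, against 0.906% of the 12031 genes it tested. In 5 genes (Clspn, Rad51ap1, Rbbp8, Tipin and Xrcc2) every NA10hd library lay below every Ctrl library, against 3.94% of all tested genes. The log2 fold change was negative in 26 genes and positive in 10, with a median of -0.47 beside 0.02 over all tested genes. In 9 of the 36 (Blm, Brca2, Exo1, Fancc, Fancd2, Fancf, Fanci, Fancl and Rad51c) the sign changed in at least 1 other setting. This comparison and that of NV with Ctrl share the 4 Ctrl libraries.

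The direct comparison of NA10hd with NV uses no Ctrl library. Here 10 of the 36 genes were lower in NA10hd and none higher, namely Brca1, Rad51ap1, Rad54l, Rbbp8, Chek1, Clspn, Timeless, Tipin, Topbp1 and Msh6. That was 27.8% of the list, against 2.79% of the 13461 tested genes called lower. In 23 genes every NA10hd library lay below every NV library, against 11.3% of all tested genes. The log2 fold change was negative in 33 of 36 genes, with a median of -1.04 beside 0.01 over all tested genes. DESeq2 called 16 members lower, the same 10 with Atr, Bard1, Mre11a, Rad54b, Xrcc2 and Xrcc3, against 4.67% of the 13895 genes it tested. Without NV replicate 1, 2 or 3 the edgeR count was 4, 2 or 5, and Brca1 and Rad51ap1 were called in all of these.

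**Figure D2:**
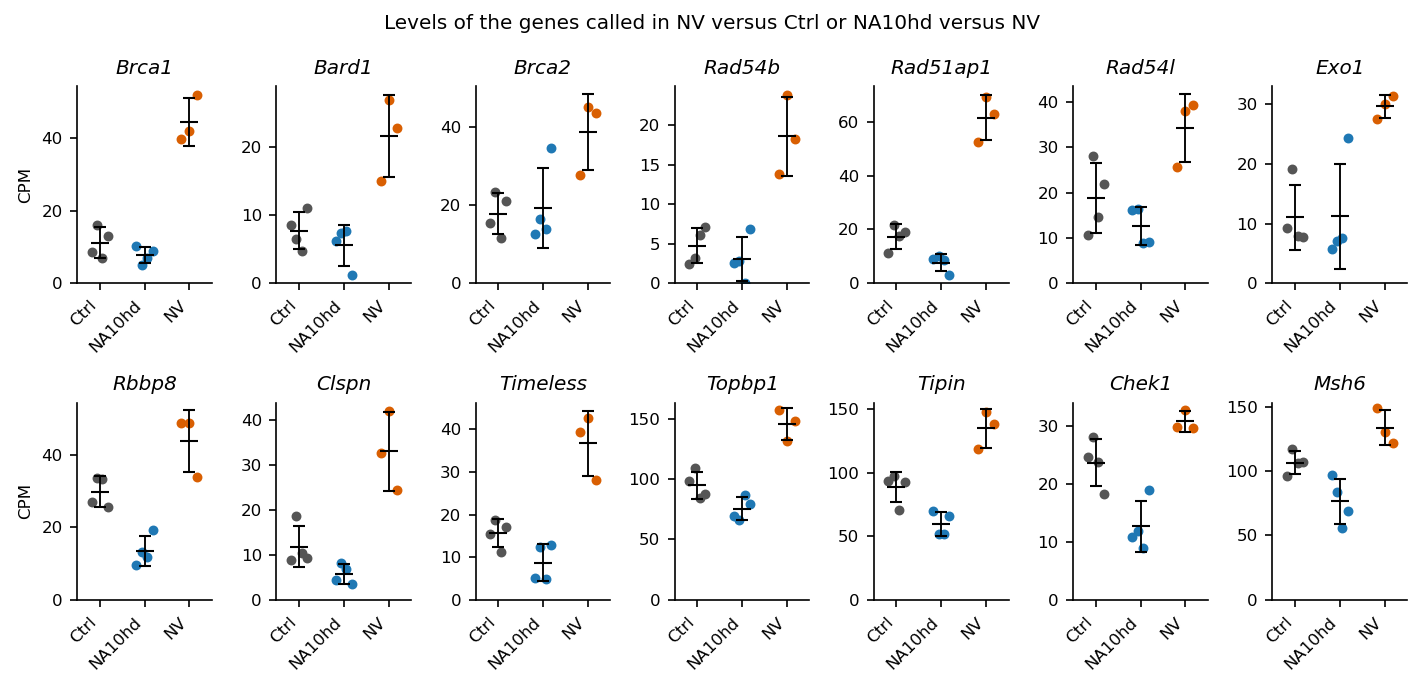
CPM (y axis, from 0, own scale in each panel) of the 14 genes called in NV versus Ctrl or in NA10hd versus NV, with 1 point for each library and bars for the group mean ± SD. In Brca1 and Rad51ap1 the 3 NV libraries sit between 39.6 and 69.1 CPM, above all other libraries, which reach 21.7 CPM at most.

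Among the genes of the BRCA complexes, Brca1, Bard1 and Brca2 were higher in NV, and Brca1 was also lower in NA10hd than in NV. Brca1 (ENSMUSG00000017146, chr11:101350078-101413269, minus strand of NCBIM37), which directs broken ends toward recombination, was at 8.58, 16.1, 6.93 and 13 CPM in the 4 Ctrl libraries, 10.2, 5.09, 6.91 and 8.8 CPM in the 4 NA10hd libraries and 39.6, 41.8 and 51.9 CPM in the 3 NV libraries. The NV libraries were the highest 3 of the 11, and Ctrl and NA10hd overlapped. Log2 fold changes were 1.98 ± 0.28 (SE, adjusted p = 0.00216, n = 3 and 4) in NV against Ctrl and -2.53 ± 0.33 (adjusted p = 0.0018) in NA10hd against NV, and both calls held without any single library.

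Bard1 (ENSMUSG00000026196, chr1:71074072-71149720, minus strand), the partner of Brca1 in its ubiquitin ligase, was at 8.58, 6.54, 4.78 and 11 CPM in the 4 Ctrl libraries, 6.15, 7.32, 7.69 and 1.14 CPM in the 4 NA10hd libraries and 15, 26.9 and 22.7 CPM in the 3 NV libraries. All NV libraries lay above all others, and NA10hd replicate 4 was the lowest. Against Ctrl the log2 fold change in NV was 1.48 ± 0.33 (adjusted p = 0.0216). This call was lost without NV replicate 2, NV replicate 3 or Ctrl replicate 2 (4 of 7 fits kept it, adjusted p from 0.0218 to 0.115).

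Brca2 (ENSMUSG00000041147, chr5:151325205-151372321, plus strand), which acts after resection to prepare the single strand, was at 15.4, 23.4, 11.6 and 21 CPM in the 4 Ctrl libraries, 12.7, 16.4, 13.8 and 34.5 CPM in the 4 NA10hd libraries and 27.6, 45.1 and 43.7 CPM in the 3 NV libraries. The NV libraries lay above the Ctrl libraries, while NA10hd replicate 4 stood apart from the other 3 NA10hd libraries and inside the range of NV. Its log2 fold change in NV was 1.11 ± 0.27 (adjusted p = 0.033), a call that was lost without NV replicate 2, NV replicate 3, Ctrl replicate 1, Ctrl replicate 3 or Ctrl replicate 4 (2 of 7 fits kept it, adjusted p from 0.0292 to 0.151). Brip1, a helicase that binds Brca1, and Palb2, the bridge between Brca1 and Brca2, were not called, with log2 fold changes of 0.81 ± 0.31 and 0.57 ± 0.31 in NV. Brip1 varied most within NA10hd, at 0.246, 5.65, 0.778 and 6.25 CPM in the 4 libraries.

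Of the 6 genes of strand invasion, Rad51ap1 and Rad54b were higher in NV, and Rad51ap1 and Rad54l were lower in NA10hd than in NV. Rad51ap1 (ENSMUSG00000030346, chr6:126873068-126889605, minus strand) helps the single strand invade the intact duplex. It was at 11.1, 21.7, 17.5 and 19 CPM in the 4 Ctrl libraries, 8.85, 10, 8.81 and 3.12 CPM in the 4 NA10hd libraries and 52.4, 69.1 and 62.9 CPM in the 3 NV libraries. The 3 groups did not overlap, with NA10hd lowest and NV highest. Log2 fold changes were 1.81 ± 0.23 in NV against Ctrl (adjusted p = 0.00133), -1.16 ± 0.43 in NA10hd against Ctrl (adjusted p = 0.329, not called) and -2.99 ± 0.37 in NA10hd against NV (adjusted p = 0.00141). The 2 calls held without any single library.

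Rad54b (ENSMUSG00000078773, chr4:11486096-11542952, plus strand), a DNA translocase of strand exchange, was at 2.5, 3.22, 6.14 and 7.13 CPM in the 4 Ctrl libraries, 2.58, 2.86, 0 and 6.81 CPM in the 4 NA10hd libraries and 13.8, 23.8 and 18.3 CPM in the 3 NV libraries. It had no count in NA10hd replicate 3, where 3 counts would correspond to 0.257 CPM. All NV libraries lay above all others, and the log2 fold change in NV was 1.95 ± 0.39 (adjusted p = 0.0123), lost without NV replicate 2 or NV replicate 3 (5 of 7 fits kept it, adjusted p from 0.0132 to 0.072). The second Rad54b ID (ENSMUSG00000066307, nested in the same locus) held 2, 0, 39 and 2 counts in the Ctrl libraries, 40, 23 and 19 in the NV libraries and none in NA10hd. Its adjusted p was 0.62 for NV against Ctrl, where 1 Ctrl library carried 39 of 43 counts, and 0.0307 for NA10hd against NV. In the annotation used here the exons of the 2 IDs share no base.

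Rad54l (ENSMUSG00000028702, chr4:115766869-115796295, minus strand), the related translocase, was at 10.7, 28.1, 14.6 and 21.9 CPM in the 4 Ctrl libraries, 16.2, 16.3, 8.9 and 9.08 CPM in the 4 NA10hd libraries and 25.7, 38 and 39.3 CPM in the 3 NV libraries. NA10hd lay below NV in every library, and Ctrl replicate 2 reached into the NV range. In NA10hd against NV the log2 fold change was -1.45 ± 0.35 (adjusted p = 0.0379), a call lost without NA10hd replicate 3, NV replicate 1, NV replicate 2 or NV replicate 3 (3 of 7 fits kept it, adjusted p from 0.038 to 0.202). Of its exon bases 15.36% overlap Lrrc41 on the opposite strand, and the library kit does not mark strand, so its counts may include reads of that gene. Rad51c, Xrcc2 and Xrcc3, which act in strand exchange, were not called by edgeR in any comparison, with log2 fold changes in NV of 1.03 ± 0.55, 0.46 ± 0.31 and 0.69 ± 0.22. DESeq2 called Xrcc3 higher in NV (adjusted p = 0.0401), and Xrcc2 and Xrcc3 lower in NA10hd than in NV (adjusted p = 0.00924 and 0.00375). In other edgeR settings Rad51c was called in NV without Ctrl replicate 3 (log2 fold change 1.83, adjusted p = 0.0444), and Xrcc2 and Xrcc3 were called lower in NA10hd than in NV with all 3 groups in 1 fit or with at least 10 counts required in every library. Xrcc2 was lower in all 4 NA10hd libraries (2.95, 5.89, 8.55 and 6.1 CPM) than in all 4 Ctrl libraries (10, 11.3, 19.9 and 10.1 CPM), with a log2 fold change of -1.12 ± 0.46 and an adjusted p of 0.37.

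The 8 genes of the Fanconi core complex and its anchor, which detect crosslinked DNA and attach ubiquitin to the ID2 complex, had no call by edgeR or DESeq2 in any comparison. The medians of their log2 fold changes were 0.47 in NV against Ctrl, 0.15 in NA10hd against Ctrl and -0.14 in NA10hd against NV. Fance, a core subunit, was at 39.3, 33.3, 29.8 and 39.9 CPM in the 4 Ctrl libraries, 39.2, 36.9, 44.6 and 36.1 CPM in the 4 NA10hd libraries and 26.1, 40.8 and 33.8 CPM in the 3 NV libraries. The groups overlapped throughout, and the log2 fold change in NV was -0.09 ± 0.21. Fancc (0.11 ± 0.18), Fancf (0.05 ± 0.44) and Fancl (-0.17 ± 0.35), the last being the ubiquitin ligase subunit, lay near 0 in NV, and these 4 genes changed sign in at least 1 other setting. Fancm, the translocase that anchors the complex, and Fancg were the 2 at an unadjusted p under 0.05, with 1.09 ± 0.44 and 0.86 ± 0.28 and adjusted p of 0.188 and 0.111. Fancb and Fanca lay at 0.83 ± 0.41 and 0.86 ± 0.65. Exons of Fancf and Fancl overlap genes on the opposite strand over 14.96% and 13.7% of their bases.

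Fancd2 and Fanci form the ID2 complex, which is clamped onto DNA once it carries ubiquitin. Fancd2 was at 1.79, 6.54, 6.62 and 2.42 CPM in the 4 Ctrl libraries, 4.79, 7.0, 0 and 0 CPM in the 4 NA10hd libraries and 8.99, 15.2 and 13.7 CPM in the 3 NV libraries. It had no count in NA10hd replicates 3 and 4, where 3 counts would correspond to 0.257 and 0.393 CPM, whereas every NV library lay above every Ctrl and NA10hd library. Fanci was at 1.97, 1.8, 1.83 and 3.09 CPM in Ctrl, 0.369, 5.81, 4.58 and 0.852 CPM in NA10hd and 4.38, 7.04 and 7.05 CPM in NV. Its NV libraries lay above all Ctrl libraries, whereas 2 NA10hd libraries reached above NV replicate 1, and 14.85% of its exon bases overlap Polg on the opposite strand. The log2 fold changes in NV were 1.5 ± 0.46 and 1.5 ± 0.47, and the adjusted p from edgeR was 0.0847 and 0.0895. DESeq2 called both, with adjusted p of 0.0321 and 0.0468, and edgeR called both when at least 10 counts were required in every library.

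Of the 6 genes of end resection and dissolution, edgeR called Exo1 higher in NV than in Ctrl and Rbbp8 lower in NA10hd than in NV. The MRN complex, which senses the broken end, had no call by edgeR: Rad50 was at 72.4, 72.3, 66 and 74.1 CPM in the 4 Ctrl libraries, 47.9, 74.6, 54.6 and 67.1 CPM in the 4 NA10hd libraries and 91.4, 63.3 and 69.2 CPM in the 3 NV libraries, and the groups overlapped. Rad50, Nbn and Mre11a had log2 fold changes in NV of 0.06 ± 0.16, -0.07 ± 0.17 and 0.22 ± 0.19, and that of Rad50 was -0.11 without NV replicate 1. Mre11a was among the genes at an unadjusted p under 0.05 in NA10hd against Ctrl, with a log2 fold change of -0.52 ± 0.23 (adjusted p = 0.406). In NA10hd against NV it was at -0.76 ± 0.23, with an adjusted p of 0.0923 in edgeR, 0.0486 without NA10hd replicate 1, and 0.0264 in DESeq2. Exo1 (ENSMUSG00000039748, chr1:177810909-177841527, plus strand), the nuclease of long-range resection, was at 9.29, 19.2, 7.89 and 7.8 CPM in the 4 Ctrl libraries, 5.78, 7.16, 7.6 and 24.4 CPM in the 4 NA10hd libraries and 27.5, 30 and 31.4 CPM in the 3 NV libraries. All NV libraries lay above all others, and Ctrl replicate 2 and NA10hd replicate 4 each stood well above the rest of their group. Its log2 fold change in NV was 1.41 ± 0.32 (adjusted p = 0.0224), a call lost without NV replicate 1, NV replicate 2, NV replicate 3, Ctrl replicate 1 or Ctrl replicate 4 (2 of 7 fits kept it, adjusted p from 0.00267 to 0.0943). Blm, the helicase that dissolves crossed strands, was not called, at 0.77 ± 0.36 in NV.

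Rbbp8 (ENSMUSG00000041238), also known as CtIP, which starts resection together with MRN, was at 27, 33.7, 33.5 and 25.6 CPM in the 4 Ctrl libraries, 9.59, 13.3, 11.8 and 19.2 CPM in the 4 NA10hd libraries and 48.8, 48.9 and 34.1 CPM in the 3 NV libraries. All NA10hd libraries lay below all Ctrl libraries, and all NV libraries above them. The log2 fold change was -1.15 ± 0.30 in NA10hd against Ctrl, with an adjusted p of 0.207 in edgeR and 0.00964 in DESeq2. In NA10hd against NV it was -1.72 ± 0.31 (adjusted p = 0.0111), lost without NV replicate 1 or NV replicate 2 (5 of 7 fits kept it, adjusted p from 0.00458 to 0.0869). In NV against Ctrl it was 0.55 ± 0.20 and not called.

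In the checkpoint group 4 of 8 genes were higher in NV than in Ctrl and 5 of 8 were lower in NA10hd than in NV. Against Ctrl the calls fell on the mediators and fork protection proteins, and no kinase passed the test. The kinase Chek1 was among the 5 called in NA10hd against NV, where DESeq2 also called the kinase Atr (-0.86 ± 0.26, adjusted p = 0.082 in edgeR and 0.024 in DESeq2). Clspn (ENSMUSG00000042489, chr4:126234179-126271147, plus strand), which brings Chek1 to active Atr, was at 8.94, 18.5, 10.3 and 9.28 CPM in the 4 Ctrl libraries, 4.42, 8.27, 6.91 and 3.41 CPM in the 4 NA10hd libraries and 32.7, 41.9 and 24.3 CPM in the 3 NV libraries. The 3 groups did not overlap. In NV its log2 fold change was 1.48 ± 0.30 (adjusted p = 0.0134), lost without NV replicate 2 (6 of 7 fits kept it, adjusted p from 0.00465 to 0.0815). It was -2.51 ± 0.41 in NA10hd against NV (adjusted p = 0.00589), lost without NV replicate 2 (6 of 7 fits kept it, adjusted p from 0.00573 to 0.0635). Against Ctrl it was -1.02 ± 0.47 in NA10hd (adjusted p = 0.417, not called).

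Timeless and Tipin form the complex that travels with the fork and keeps helicase and polymerase together. Timeless (ENSMUSG00000039994, chr10:127669119-127689997, plus strand) was at 15.4, 18.7, 11.1 and 17.1 CPM in the 4 Ctrl libraries, 5.04, 12.3, 4.84 and 12.8 CPM in the 4 NA10hd libraries and 39.4, 42.6 and 28.1 CPM in the 3 NV libraries. NV lay above all other libraries, and NA10hd and Ctrl overlapped. In NV its log2 fold change was 1.24 ± 0.24 (adjusted p = 0.0114), lost without NV replicate 2 (6 of 7 fits kept it, adjusted p from 0.0154 to 0.0665). It was -2.08 ± 0.42 in NA10hd against NV (adjusted p = 0.0183), lost without NV replicate 1, NV replicate 2 or NV replicate 3 (4 of 7 fits kept it, adjusted p from 0.0104 to 0.115). Tipin (ENSMUSG00000032397, chr9:64129414-64152599, plus strand) was at 93.5, 97.4, 71.1 and 93.1 CPM in the 4 Ctrl libraries, 69.8, 51.6, 51.7 and 66.4 CPM in the 4 NA10hd libraries and 118, 148 and 139 CPM in the 3 NV libraries, and its 3 groups did not overlap. Its log2 fold change in NV was 0.60 ± 0.15 (adjusted p = 0.0307), 1.52-fold and so just above the fold threshold, and the call was lost without NV replicate 2, NV replicate 3, Ctrl replicate 1, Ctrl replicate 3 or Ctrl replicate 4 (2 of 7 fits kept it, adjusted p from 0.0367 to 0.15). In NA10hd it was -0.57 ± 0.19 against Ctrl (adjusted p = 0.289, not called) and -1.19 ± 0.19 against NV (adjusted p = 0.00537), the latter lost without NV replicate 2 (6 of 7 fits kept it, adjusted p from 0.00524 to 0.0512).

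Topbp1 (ENSMUSG00000032555, chr9:103207545-103252762, plus strand), which activates Atr, was at 98.3, 109, 84.6 and 87.4 CPM in the 4 Ctrl libraries, 69.4, 66.3, 87 and 79.8 CPM in the 4 NA10hd libraries and 158, 131 and 148 CPM in the 3 NV libraries. NV lay above all other libraries. In NV against Ctrl the log2 fold change was 0.62 ± 0.13 (adjusted p = 0.0187), 1.53-fold, lost without NV replicate 1, NV replicate 3, Ctrl replicate 3 or Ctrl replicate 4 (3 of 7 fits kept it, adjusted p from 0.015 to 0.0879). In NA10hd against NV it was -0.95 ± 0.18 (adjusted p = 0.0116), lost without NV replicate 1, NV replicate 2 or NV replicate 3 (4 of 7 fits kept it, adjusted p from 0.0127 to 0.0846).

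Of the kinases, Chek1 (ENSMUSG00000032113, chr9:36516067-36534650, minus strand), the effector of Atr, was at 24.7, 28, 23.8 and 18.2 CPM in the 4 Ctrl libraries, 10.9, 11.9, 8.9 and 19 CPM in the 4 NA10hd libraries and 29.8, 32.8 and 29.7 CPM in the 3 NV libraries. NV lay just above Ctrl in every library and well above NA10hd, and NA10hd replicate 4 overlapped with Ctrl. Set against NV, its log2 fold change in NA10hd was -1.29 ± 0.34, with an adjusted p of 0.0496, and the gene was called in 1 of 7 fits with a library left out, that without NA10hd replicate 4 (adjusted p from 0.0148 to 0.209). Against Ctrl its log2 fold changes were 0.37 ± 0.20 in NV and -0.90 ± 0.33 in NA10hd. Atm, Atr and Chek2 had log2 fold changes in NV of -0.37 ± 0.38, 0.32 ± 0.18 and 0.50 ± 0.21, all uncalled, and Atm had the lowest value of the 36 genes.

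Msh6 (ENSMUSG00000005370, chr17:88374390-88390223, plus strand), which recognizes mismatches, was at 96.2, 118, 106 and 107 CPM in the 4 Ctrl libraries, 96.7, 84.1, 55.9 and 69.3 CPM in the 4 NA10hd libraries and 149, 131 and 122 CPM in the 3 NV libraries. NV lay above all other libraries, and NA10hd replicate 1 reached the lowest Ctrl library. Set against NV, its log2 fold change in NA10hd was -0.82 ± 0.21 (adjusted p = 0.0466), called in 1 of 7 fits with a library left out, that without NA10hd replicate 1 (adjusted p from 0.0278 to 0.204). Against Ctrl the values were 0.32 ± 0.13 in NV and -0.48 ± 0.19 in NA10hd, neither called.

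The promoters of genes that peak in S phase often hold sites for the E2F factors, and those of cell cycle genes more widely hold CCAAT boxes and CHR elements. The RefSeq table (build GRCm38.p6) held windows from 250 bases before to 50 bases after the start for 28 of the 36 genes, 30 windows in all. Exact matches on either strand to the E2F letters TTTGGCGC, TTTGGCGG, TTTCCCGC or TTTCGCGC lay in 10 of 30 windows (33.3%), against 777 of 32851 windows of the whole table (2.37%). They were those of Bard1, Brca2, Chek1, Chek2, Clspn, Fancg, Msh6, Topbp1 and both windows of Rad51c, so 4 of the 7 genes called in NV that have a window and 5 of the 21 others had one. The called genes Exo1, Rad54b and Tipin have no window in the table. CCAAT lay in 19 windows (63.3%, against 37.4% of the table), those of 3 of the 7 called genes and 15 of the 21 others, and the CHR letters TTTGAA or TTCGAA in 2 (6.67%, against 19.2%). A match in these letters is no measured binding site, and binding was not measured here. The windows of the 4 called genes with an E2F match are shown first, and then those of Brca1 and Rad51ap1, whose calls held in all fits with a library left out and which held none of these E2F letters. Each is written along the strand of its gene, with capitals for the E2F and CCAAT matches.
Bard1 (chr1:71102923-71103222, minus strand): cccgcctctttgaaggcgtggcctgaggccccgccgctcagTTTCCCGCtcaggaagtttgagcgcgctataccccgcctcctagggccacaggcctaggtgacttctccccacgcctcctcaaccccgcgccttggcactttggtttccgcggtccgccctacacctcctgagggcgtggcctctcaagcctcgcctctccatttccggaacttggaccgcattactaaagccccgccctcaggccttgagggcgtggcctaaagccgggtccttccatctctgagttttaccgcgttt
Brca2 (chr5:150522371-150522670, plus strand): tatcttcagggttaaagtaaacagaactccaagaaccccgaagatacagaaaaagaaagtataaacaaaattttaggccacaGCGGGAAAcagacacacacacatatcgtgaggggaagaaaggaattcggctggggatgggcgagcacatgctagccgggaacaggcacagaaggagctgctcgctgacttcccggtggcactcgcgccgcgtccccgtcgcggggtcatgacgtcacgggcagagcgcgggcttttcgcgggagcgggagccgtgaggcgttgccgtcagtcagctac
Clspn (chr4:126556730-126557029, plus strand): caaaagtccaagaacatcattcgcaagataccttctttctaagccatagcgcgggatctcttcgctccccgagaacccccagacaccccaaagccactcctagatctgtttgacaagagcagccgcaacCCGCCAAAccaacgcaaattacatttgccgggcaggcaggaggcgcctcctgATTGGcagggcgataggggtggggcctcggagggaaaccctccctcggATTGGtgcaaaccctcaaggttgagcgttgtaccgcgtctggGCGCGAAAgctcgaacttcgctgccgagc
Topbp1 (chr9:103305077-103305376, plus strand): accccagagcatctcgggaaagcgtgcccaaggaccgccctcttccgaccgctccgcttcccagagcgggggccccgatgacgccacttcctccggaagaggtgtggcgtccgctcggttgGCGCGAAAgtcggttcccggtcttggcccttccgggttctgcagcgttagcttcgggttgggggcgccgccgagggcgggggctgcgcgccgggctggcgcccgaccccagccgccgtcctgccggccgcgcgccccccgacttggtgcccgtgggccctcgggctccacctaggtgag
Brca1 (chr11:101551906-101552205, minus strand): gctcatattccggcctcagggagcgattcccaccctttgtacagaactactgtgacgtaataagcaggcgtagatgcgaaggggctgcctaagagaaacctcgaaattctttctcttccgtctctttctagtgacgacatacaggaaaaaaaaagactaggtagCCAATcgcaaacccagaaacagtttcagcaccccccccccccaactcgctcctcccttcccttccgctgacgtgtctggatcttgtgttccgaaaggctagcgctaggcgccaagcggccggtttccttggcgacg
Rad51ap1 (chr6:126939538-126939837, minus strand): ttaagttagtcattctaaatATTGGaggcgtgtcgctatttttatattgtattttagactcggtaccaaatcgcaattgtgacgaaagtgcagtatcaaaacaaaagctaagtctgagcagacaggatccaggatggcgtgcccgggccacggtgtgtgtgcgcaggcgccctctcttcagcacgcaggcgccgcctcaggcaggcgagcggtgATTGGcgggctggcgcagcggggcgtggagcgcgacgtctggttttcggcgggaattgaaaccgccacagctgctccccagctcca

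In Clspn one E2F match began 121 bases before the start and the other 21 bases after it. The matches in Topbp1, Brca2 and Bard1 began 129, 168 and 209 bases before the start. Brca1 held 1 CCAAT beginning 86 bases before the start, and Rad51ap1 held 2, at 36 and 230 bases.

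Averaged over the 36 genes on the log2(CPM + 1) scale and set against the Ctrl mean, the 3 NV libraries stood at 0.64, 0.86 and 0.72 and the 4 NA10hd libraries at -0.51, -0.31, -0.64 and -0.23. The Ctrl libraries lay between -0.12 and 0.21, so the 3 groups did not overlap. In the NV libraries 30, 35 and 31 of the 36 genes were above their Ctrl mean, and in the NA10hd libraries 7, 10, 7 and 14. The Ctrl libraries gave 19, 29, 12 and 15, so by this count Ctrl replicate 2 came close to NV and Ctrl replicate 3 lay below NA10hd replicate 4. By role the mean in NV was 1.32 ± 0.35 (SD, n = 3) for the ID2 complex, 1.15 ± 0.12 for the BRCA complexes, 1.12 ± 0.2 for strand invasion, 0.59 ± 0.11 for the checkpoint group, 0.50 ± 0.08 for end resection, 0.42 ± 0.25 for the Fanconi core and 0.32 ± 0.15 for Msh6. In NA10hd it was -0.45 ± 1.02 (SD, n = 4), -0.69 ± 0.33, -0.60 ± 0.31, -0.62 ± 0.23, -0.38 ± 0.25, 0.06 ± 0.29 and -0.5 ± 0.34 in the same order, so the ID2 complex and the Fanconi core had means within their SD of Ctrl.

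**Figure D3:**
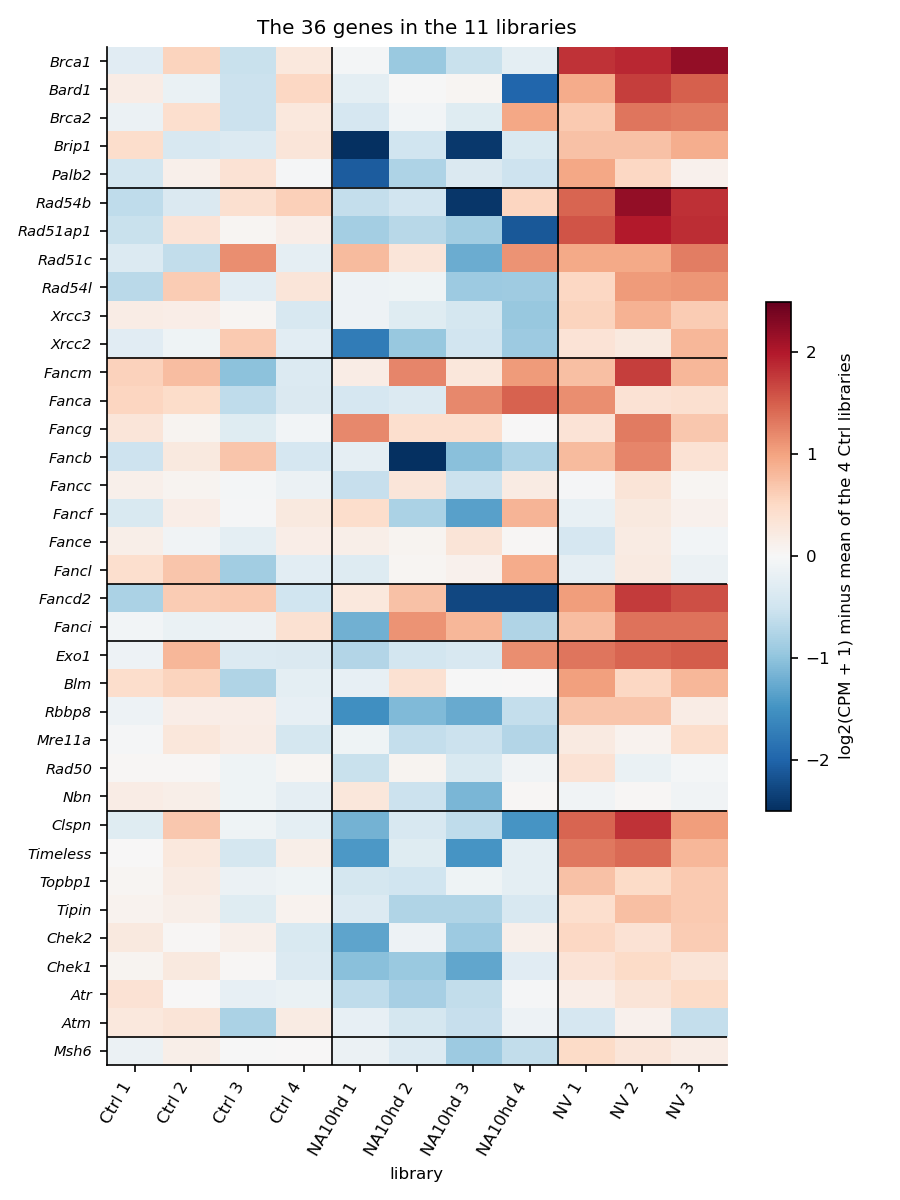
Level of each of the 36 genes (rows, by role) in each of the 11 libraries (columns), as log2(CPM + 1) minus the mean of the 4 Ctrl libraries, red above and blue below that mean and with color saturated beyond 2.5. The NV columns are red in most rows, with Fanca, Fancb, Fancg and Fancm of the Fanconi core among them. The NA10hd columns are mostly blue but uneven, with Exo1 and Brca2 red in replicate 4.

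The NA10hd libraries also differed most among themselves. The median SD of the 36 genes on this scale was 0.53 in NA10hd, 0.37 in Ctrl and 0.26 in NV, beside 0.47, 0.29 and 0.23 for all tested genes. In NA10hd 6 members had an SD above 1, the largest being Fancd2 at 1.61 and the smallest Fance at 0.13, and none exceeded 1 in Ctrl or NV.

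The wider pathway, from further lists also chosen with earlier results known, gave smaller shares. Of 41 tested further recombination and Fanconi genes 4 were called higher in NV (9.76%, against 2.55% of all tested genes), with a median log2 fold change of 0.31. They were Eme1 (2.80 ± 0.54, adjusted p = 0.0105), the partner of the nuclease Mus81, Fignl1 (1.40 ± 0.20, adjusted p = 0.00212), a recombination factor, Dna2 (0.93 ± 0.18, adjusted p = 0.0119), a resection nuclease, and Ercc1. Of 17 further checkpoint genes 3 were called higher (17.6%, against the same 2.55%). These were H2afx (1.57 ± 0.21, adjusted p = 0.00162), the histone that marks breaks, Pkmyt1 (1.47 ± 0.36, adjusted p = 0.0361), a kinase that restrains Cdk1, and Wdhd1 (1.12 ± 0.21, adjusted p = 0.00997), a replisome protein. None of the 5 other mismatch repair genes, 10 end joining genes or 15 p53 targets was called in NV by edgeR or DESeq2, and at an unadjusted p under 0.05 the numbers were 0, 0 and 3. Those 3 p53 targets were lower in NV (20% of the list, against 9.96% of all tested genes). Leaving out NV replicate 2 ended the calls of Eme1, Dna2, Wdhd1 and Pkmyt1 (adjusted p = 0.0687, 0.0607, 0.0611 and 0.132), and leaving out NV replicate 3 those of Eme1, Dna2 and Pkmyt1 (0.0512, 0.0708 and 0.105). Pkmyt1 was also lost without NV replicate 1, Ctrl replicate 1 or Ctrl replicate 4 (0.0822, 0.0913 and 0.0645). With all 3 groups in 1 fit Eme1, Dna2, Wdhd1 and Pkmyt1 were not called (0.282, 0.0907, 0.0767 and 0.314), nor were Eme1, Dna2 and Pkmyt1 with libraries of the same sex mix (0.0908, 0.0752 and 0.152), whereas Fignl1 and H2afx kept their calls in both.

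In NA10hd against Ctrl none of the further lists had a call by edgeR. At an unadjusted p under 0.05, 6 of 40 recombination and Fanconi genes were lower and 1 higher, 4 of 17 checkpoint genes and 2 of 9 end joining genes were lower, 2 of 14 p53 targets were higher (against 5.26% of all tested genes lower and 6.62% higher), and no other mismatch repair gene reached it, while DESeq2 called 1, 1, 0, 0 and 0 genes of these lists. In NA10hd against NV, 5 of 42 further recombination and Fanconi genes were called lower (11.9%), namely Usp1, Recql4, Dna2, Fignl1 and Mms22l. So were 2 of 17 checkpoint genes (11.8%, H2afx and Wdhd1), against 2.79% of all tested genes. Of 15 p53 targets 1 was called higher (6.67%, Btg2), against 309 of all 13461 tested genes. None of the other mismatch repair and end joining genes was called by edgeR, 1 of each list was lower at an unadjusted p under 0.05 (9.27% of all tested genes), and DESeq2 called 0 and 1. Fignl1 and Wdhd1 had log2 fold changes of -2.40 ± 0.35 and -1.98 ± 0.30 (adjusted p = 0.00361 and 0.00431). Dna2 had -1.54 ± 0.28 (adjusted p = 0.0101), and its call was lost without NV replicate 2 or 3 (adjusted p = 0.0726 and 0.0822). Recql4, a helicase, had no count in any NA10hd library and 2.31, 5.68 and 2.8 CPM in NV, and its call was lost without NV replicate 1, 2 or 3 (adjusted p = 0.0799, 0.133 and 0.106). Btg2, an antiproliferative p53 target, had a log2 fold change of 0.79 ± 0.20 (adjusted p = 0.0478) and was called in 1 of 7 fits with a library left out, that without NA10hd replicate 2.

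Proliferation markers moved with the 36 genes. The 14 markers fixed for this purpose, among them Mki67 and Top2a, summed to 644 to 1039 CPM in Ctrl, 382 to 509 CPM in NA10hd and 1874 to 2151 CPM in NV libraries, and none was at 0 in a group. Of the 14, 12 were called higher in NV than in Ctrl (against 2.55% of all tested genes) and 13 lower in NA10hd than in NV (against 2.79%). In NA10hd against Ctrl edgeR called none of the 14, and DESeq2 called 5 lower (against 0.906% of the genes it tested). At an unadjusted p under 0.05, 12 of the 14 were lower there (against 5.26% of all tested genes). On the log2 scale their mean per library was 1.67 ± 0.16 above Ctrl in NV (SD, n = 3) and -1.59 ± 0.65 in NA10hd (n = 4), a wider range than that of the 36 genes. The part of dividing cells in the differences of the 36 genes was not tested. The cell cycle lists shipped with Seurat (S phase and G2/M) hold 6 of the 36 genes (Brip1, Rad51ap1, Blm, Exo1, Clspn and Tipin), of which 4 were called in NV. Of the 30 others 6 were called higher in NV (20%, against 2.55% of all tested genes) and 7 lower in NA10hd against NV (23.3%, against 2.79%). The mean of these 30 per library was 0.66 ± 0.12 in NV and -0.37 ± 0.18 in NA10hd. A gene outside these lists may still vary with the cell cycle, which was not tested.

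**Figure D4:**
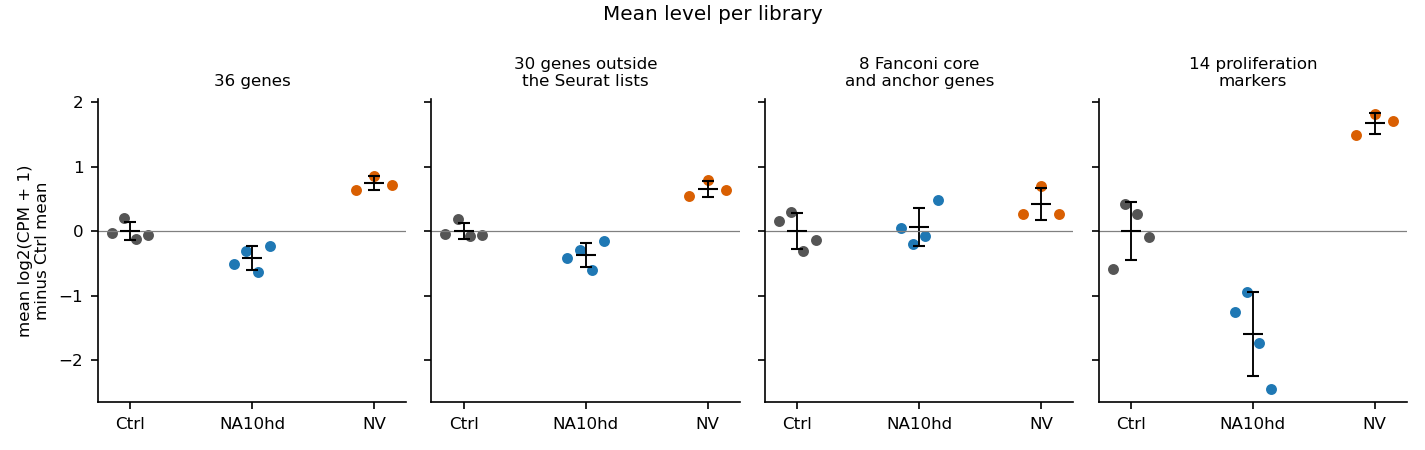
Mean of log2(CPM + 1) minus the Ctrl mean (y axis) for 4 sets of genes, with 1 point for each library and bars for the group mean ± SD. For the 36 genes the groups do not overlap (NV 0.64 to 0.86, NA10hd -0.64 to -0.23), for the 8 Fanconi core and anchor genes they do, and the 14 proliferation markers span the widest range.

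NA10hd replicate 4 had the lowest mean of the proliferation markers, -2.44, and the highest mean of the 36 genes among the NA10hd libraries, -0.23. It was also the library with Xist counts alone and with the fewest detected genes, 13859. The other 3 NA10hd libraries had 14430 to 15455 detected genes, also below every Ctrl (15485 to 15899) and every NV library (15683 to 15900), and the part of this in the lower NA10hd values was not tested. Without NA10hd replicate 4 the edgeR count of called members was 0 in NA10hd against Ctrl and was 13 in NA10hd against NV.

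The summed level of megakaryocyte markers and, of the erythroid markers, that of Klf1 lay higher in each NV library than in any other library, while the sums of the myeloid and lymphoid lists overlapped between groups or stayed low. The 3 megakaryocyte markers (Pf4, Gp1bb and Itga2b) summed to 64.2 to 92.0 CPM in Ctrl, 44.4 to 81.8 CPM in NA10hd and 160.0 to 411 CPM in NV, with none at 0 and 2 of 3 called higher in NV. The 3 erythroid markers summed to 2.87 to 7.39, 0 to 3.28 and 10.7 to 22.1 CPM, in NV nearly all of it from Klf1, a transcription factor, at a mean of 17.6 CPM in NV and 3.91 CPM in Ctrl and called higher. The globin Hbb-b1 was at a mean of 0.708 CPM in NV and 0.556 CPM in Ctrl, and Hba-a1 was at 0 in NV. The 5 myeloid markers summed to 439 to 554, 373 to 529 and 492 to 527 CPM, of which Lyz2 made up nearly all (means of 493.2, 467.6 and 507.3 CPM), with Mpo at 0 in Ctrl and NV, Ctsg at 0 in all groups and Elane and Itgam at means of at most 1.54 CPM. The 4 lymphoid markers summed to at most 3.42 CPM with Cd3e and Il7r at 0 in all groups, and the 3 endothelial markers to 22.1 to 61.0, 32.7 to 72.2 and 17.0 to 27.8 CPM with Cdh5 at 0 in NV. The endothelial sum was thus higher in every NA10hd library than in every NV library, and Kdr was called higher there (log2 fold change 1.65 ± 0.34, adjusted p = 0.0207). Erythroid cells with Ter119 were gated out of the sort. The part of cells with megakaryocyte or endothelial markers in the values of the 36 genes was not tested.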

How the data were processed

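Whole-number counts per Ensembl gene were deposited as raw counts for 11 libraries; the authors aligned reads to NCBIM37 with HISAT2 and counted with featureCounts (versions not given in the sources used here) from amplified cDNA of 1000 sorted cells and an unstranded Nextera XT preparation, for which no molecular identifiers are described. Gene positions and exon lengths came from GENCODE vM1, which uses that build, and 37205 of 37991 IDs had a symbol. Each pair of groups was fitted on its own libraries with edgeR 4.0.16 (R 4.3.3, TMM factors, filterByExpr, quasi-likelihood test), with p-values adjusted over all tested genes. DESeq2, the tool of the study, was an alternative (version 1.42.0 here), with other filters, size factors, left-out libraries, a replicate block, matched sex mix and 1 fit for all groups. The fits were tested on simulated data. The SE of an edgeR log2 fold change is its absolute value divided by the square root of the quasi-likelihood F statistic. CPM are counts divided by TMM-scaled totals. A value of 0 allows up to 3 counts, which covers counting error only. Totals ranged from 5464815 to 14283008. The 36 genes, the further lists, marker lists and motifs were chosen with earlier results of these data known. Full values are given for genes called in any comparison and for the gene of highest mean CPM in each role, and up to 3 genes by fold change from each further list. Some genes of the further and marker lists are not reported here and were left out of their counts and sums. Cell cycle lists came from Seurat 5.3.0.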

Additional observations from a re-analysis of the deposited data

Results flagged for a closer look

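In the 4 Ctrl and the 4 NA10hd libraries, 9 of 72 sets of values had 1 library farther from the others than Dixon's 95% limit for 4 values allows. Chance gives such a library in about 1 in 20 sets, and the NV group, with 3 libraries, was not examined this way.

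In Ctrl replicate 2, Clspn was at 18.5 CPM beside 8.94 to 10.3 CPM in the other Ctrl libraries, and Exo1 was at 19.2 CPM beside 7.8 to 9.29 CPM. In Ctrl replicate 3, Rad51c was at 7.89 CPM beside 1.61 to 2.42 CPM, Xrcc2 at 19.9 CPM beside 10 to 11.3 CPM, Atm at 4.86 CPM beside 10.6 to 11.7 CPM and Tipin at 71.1 CPM beside 93.1 to 97.4 CPM. In Ctrl replicate 4, Fanci was at 3.09 CPM beside 1.8 to 1.97 CPM.

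In NA10hd replicate 4, Brca2 was at 34.5 CPM beside 12.7 to 16.4 CPM in the other NA10hd libraries, and Exo1 was at 24.4 CPM beside 5.78 to 7.6 CPM. The same library had the lowest value of its group for Bard1 (1.14 CPM), Rad51ap1 (3.12 CPM) and Clspn (3.41 CPM), and it had no count for Fancd2. Without it, Brca2 and Exo1 were called lower in NA10hd than in NV, and with it they were called only with the replicate block.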

How the results depend on the processing

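In NV against Ctrl the number of called genes, 10 in the fit described above, was 2 with all 3 groups in 1 fit, 4 with libraries of the same sex mix and between 3 and 9 with each library left out in turn, and the median log2 fold change lay between 0.59 and 0.74 in the last. With all 3 groups in 1 fit the called genes were Brca1 and Rad51ap1, and with the same sex mix also Bard1 and Rad54b. Clspn and Timeless were thus called in neither of these settings. With libraries of the same sex mix Fance was 0.09 and Fancf -0.004, on the other side of 0. With a library left out, Fance ran from -0.25 to 0.06, Fancf from -0.08 to 0.18, Fancl from -0.4 to 0.11, Fancc from -0.000859 to 0.18 and Rad50 from -0.11 to 0.17. In NA10hd against Ctrl, where edgeR called 0 genes, DESeq2 called 1, and 2 (Chek1 and Rbbp8) without NA10hd replicate 4, an alternative chosen after seeing the data. In NA10hd against NV the count of 10 became 16 with DESeq2, 19 with DESeq2 without NA10hd replicate 4, and 2 to 13 with each library left out, and the median of -1.04 lay between -1.22 and -0.92 in the last. Same-numbered libraries did not deviate together (correlations between -0.109 and 0.0339), so the numbers were not taken as pairs. With the replicate block 7 genes were called in NV against Ctrl, 0 in NA10hd against Ctrl and 10 in NA10hd against NV, where the median was -1.31. The cause of these differences was not tested. Fits that leave libraries out also hold fewer libraries, and the part of this was not tested either. Other normalization, other filters on low counts and no fold threshold left each count within 1.5 times its value, and no called gene changed sign in any setting. In NA10hd against NV, DESeq2 size factors in edgeR ended the calls of Chek1 and Msh6. Fitting without a filter on low counts ended that of Chek1. Genes under 10 counts in a library, up to 4 of the 36 in a single library, limit what this depth can show.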
